A study of Homo sapiens with 26 samples.

Results

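The 10 genes for integrin subunits that lie outside hemidesmosomes (10 of the 26485 gene symbols in each table) were followed through every experiment of the series: *ITGA1*, *ITGA2*, *ITGA3*, *ITGA5*, *ITGAV*, *ITGB1*, *ITGB3*, *ITGB5*, *ITGB6* and *ITGB8*. They were chosen by symbol, with earlier results of these data known, and all 10 were listed in all 5 tables. The study asked by mRNA-seq how BRDT, a testis-specific bromodomain protein of the BET family, and the squamous transcription factor p63 (gene *TP63*) shape gene expression in esophageal squamous cell carcinoma (ESCC). It used 3 established human ESCC lines, giving 26 bulk libraries in 11 groups. KYSE180 cells received a control siRNA (siCont) or an siRNA against *BRDT* (siBRDT) in one experiment, with 3 libraries each, and siCont or an siRNA against *TP63* (siTP63) in another, with 2 libraries each. TE6 cells received siCont, siBRDT or siTP63 in 1 experiment, with 2 libraries each, so that both TE6 knockdowns share their control libraries. KYSE150 cells, which the study describes as negative for BRDT, received siCont or siTP63, with 2 libraries each, or were electroporated with a BRDT expression plasmid (BRDT-OE) or the empty vector (control), with 3 libraries each. Knockdown cells were collected 48 h after transfection. The overexpressing cells carried the plasmid transiently. No source says whether replicates were separate cultures, so the p-values measure only the spread between these libraries, which may be technical.

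Integrins are heterodimers of an alpha and a beta subunit that span the cell membrane, bind matrix proteins outside the cell and connect through adaptor proteins to actin inside it. In stratified epithelia such as the esophageal lining, basal cells hold on to the basement membrane through them, and the set of heterodimers changes when cells migrate or heal a wound. *ITGB1* encodes the beta subunit shared by most matrix receptors and lies on chr10:32887273-33005792. Its alpha partners include *ITGA1* (chr5:52787916-52959209) and *ITGA2* (chr5:52989340-53094779), which form collagen receptors, *ITGA3* (chr17:50055968-50090481), which forms a laminin receptor, and *ITGA5* (chr12:54395261-54419266), which forms the classical fibronectin receptor. *ITGAV* (chr2:186590010-186680901) pairs with several beta subunits to bind vitronectin, fibronectin and latent TGF-beta. Besides *ITGB1*, its partners include *ITGB3* (chr17:47253827-47313743), *ITGB5* (chr3:124761948-124901418), *ITGB6* (chr2:160099667-160200313), which is largely epithelial, and *ITGB8* (chr7:20330702-20415754). Coordinates are whole genes of GENCODE release 44 on hg38, the build the authors mapped to. *ITGA1*, *ITGB3* and *ITGB6* share exon bases with another gene on their own strand, and *ITGA5*, *ITGAV*, *ITGB1* and *ITGB8* with a noncoding RNA on the other strand. How the authors' counting split such reads is not given in the sources used here, so the values of these 7 genes carry that uncertainty. The other three share no exon bases.

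RefSeq start-site windows were found for 8 of the 10 genes, in 12 entries, each read from 250 bases before to 30 bases after the start on GRCh38.p14. The pattern TGANTCA, searched on both strands, is the binding motif of AP-1 factors. It was in 7.35% of all 35116 windows of this length and, among the integrin genes, in that of *ITGA5*. The *ITGA5* window, chr12:54419237-54419516 on the minus strand, is printed 5′ to 3′ because it is the only integrin window with a match. The capitals mark the match, which runs from position -6 to position 1 relative to the start.
ITGA5: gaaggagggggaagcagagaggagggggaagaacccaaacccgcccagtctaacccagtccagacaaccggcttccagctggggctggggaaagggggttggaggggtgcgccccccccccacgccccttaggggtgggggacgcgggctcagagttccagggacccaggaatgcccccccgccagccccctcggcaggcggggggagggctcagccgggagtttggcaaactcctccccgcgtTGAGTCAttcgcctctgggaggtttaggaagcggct
A match of letters is a description of the window and no measure of binding.

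The targeted genes were checked first, as normalised values, that is, gene counts divided by a size factor that the authors set per library within each table. *BRDT* was at 1017, 1043 and 1136 in the KYSE180 siCont libraries and at 132, 147 and 198 under siBRDT, and in TE6 at 241 and 242 against 55.0 and 46.6. *TP63* was at 2573 and 3035 in KYSE180 siCont and at 794 and 925 under siTP63, in TE6 at 2596 and 2785 against 133 and 112, and in KYSE150 at 695 and 729 against 170 and 114. BRDT-OE raised *BRDT* from 6.58 to 16.0 in control libraries to between 15872 and 17542. In KYSE150 without the plasmid, *BRDT* had 9, 17 and 6 reads in the vector controls, 41 and 7 in siCont and 0 and 8 under siTP63. siBRDT also lowered *TP63*, by 0.58 on the log2 scale in KYSE180 and by 1.15 in TE6 (limma adjusted p = 8.8e-06 and 2.0e-05). Libraries held 7582089 to 19372441 reads, and 0 reads of a gene allow up to 3 reads by counting error, which equals 0.155 to 0.396 RPM (reads scaled by the library total). As molecules were not tagged before PCR, such limits and intervals speak of counting error alone. Summed over 8 squamous markers, levels ran from 791 to 9250 RPM, with *SOX2* at 0.325 to 0.670 RPM in KYSE150. Fibroblast markers, 6 in number, summed to 3.80 to 120 RPM, 3 endothelial markers to 0.637 to 12.1 RPM and 4 leukocyte markers to 0 to 3.08 RPM. The first siBRDT library of TE6 stands apart, with reads in 20995 genes against 15314 to 18972 in the other libraries, and the KYSE150 siTP63 experiment is split within its groups, as given below for *ITGB1*. In bulk RNA, a change in the share of cells that carry a transcript and a change in its amount per cell cannot be told apart.

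All 3 lines carried a set of laminin, collagen and fibronectin receptor transcripts, but *ITGAV* was at or near 0 in TE6. Levels between genes were compared per length, as RPKM, reads scaled by exon length and library total. With the union of exons as the length, *ITGB5* stood highest in every control group, at 47.9 ± 1.34 RPKM (SD, n = 3) and 29.6 ± 3.43 (n = 2) in the siCont libraries of the KYSE180 BRDT and TP63 experiments, 28.3 ± 0.437 (n = 2) in TE6, and 23.5 ± 1.47 (n = 2) and 33.4 ± 1.40 (n = 3) in the siCont and vector controls of KYSE150. *ITGA3* ranked below 1 to 2 other genes in each of the 5 control groups, between 9.14 and 31.7 RPKM on average. *ITGB1* ranked second in TE6, at 17.5 ± 1.68 RPKM, above *ITGA3* at 9.14 ± 0.490. The order at the top depended on the length used. With the longest transcript, *ITGB1* was first in TE6 (45.3 RPKM against 41.6 for *ITGB5*, ranges apart) and in the KYSE150 vector controls (52.3 against 49.1, ranges overlapping). In the KYSE180 siCont libraries of the BRDT experiment *ITGA2* was second at 39.0 ± 4.95 RPKM, and *ITGB1* and *ITGA5*, at 17.9 ± 0.402 and 16.3 ± 1.56, had overlapping ranges. With the longest transcript *ITGA2*, at 39.3 RPKM, was there below *ITGA3* at 56.7 and *ITGB1* at 46.5, and *ITGA5*, at 24.1, no longer overlapped with *ITGB1*. With either length, *ITGB8* was on average below *ITGA5* and above *ITGB6* in all 5 control groups. With the union of exons, *ITGB8* (0.941 to 0.953 RPKM) and *ITGB6* (0.597 to 0.996) overlapped in the TP63 experiment's KYSE180 siCont libraries. *ITGB6* stayed between 0.134 and 3.54 RPKM with the union of exons.

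**Figure D1:**
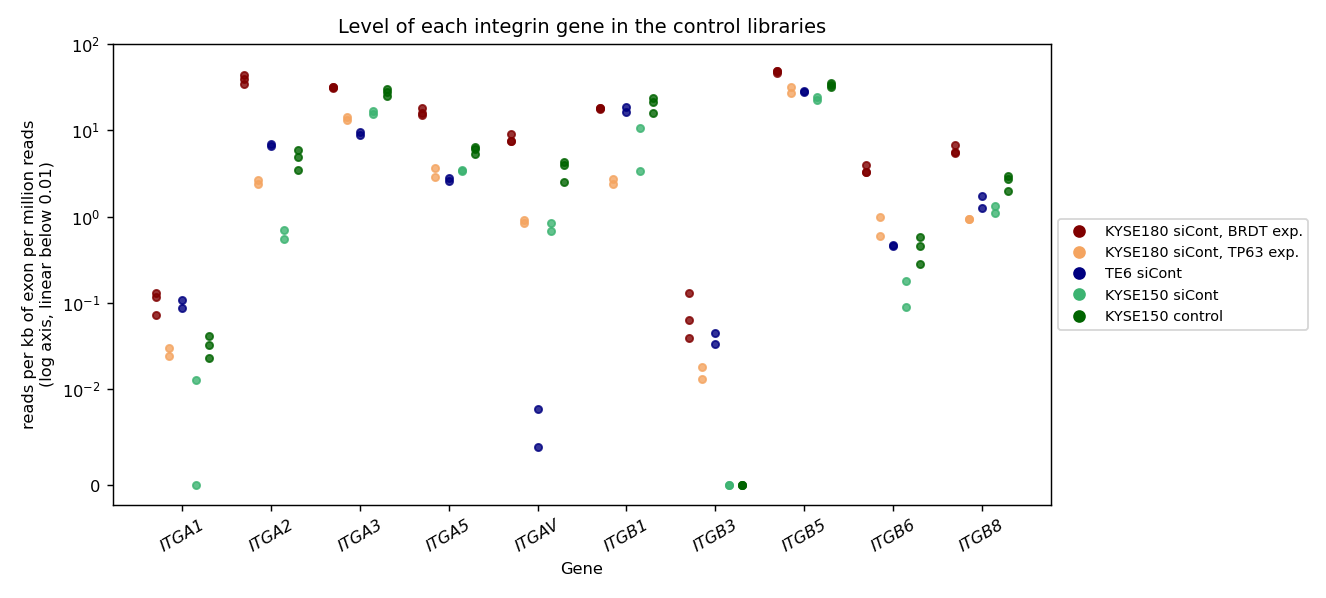
Level per length of exon union (RPKM, log axis that is linear below 0.01) of the 10 integrin genes in each control library, coloured by control group. *ITGB5* is highest in all 5 groups with this length, though not in TE6 and the KYSE150 vector controls with the longest transcript. *ITGA1* and *ITGB3* lie at the bottom except in TE6, where *ITGAV* lies below both.

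*ITGB3*, *ITGA1* and, in TE6, *ITGAV* were scarce. *ITGB3* had 0 to 10 reads in each of the 26 libraries and was at 0 reads in 9 of the 10 KYSE150 libraries, so it passed the filter on low values (a mean of at least 10) in no comparison. *ITGA1* had 0 to 27 reads per library and passed in 3 of the 6 comparisons. *ITGAV* had 1 and 2 reads in the TE6 siCont libraries, 1 and 0 under siBRDT and 0 and 0 under siTP63, all under the limit of 3 reads, while its KYSE180 siCont libraries held 1334, 2156 and 1985 reads in one experiment and 194 and 262 in the other. The 7 other genes passed in all 6 comparisons. The plot of values by library shows all 10 genes.

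**Figure D2:**
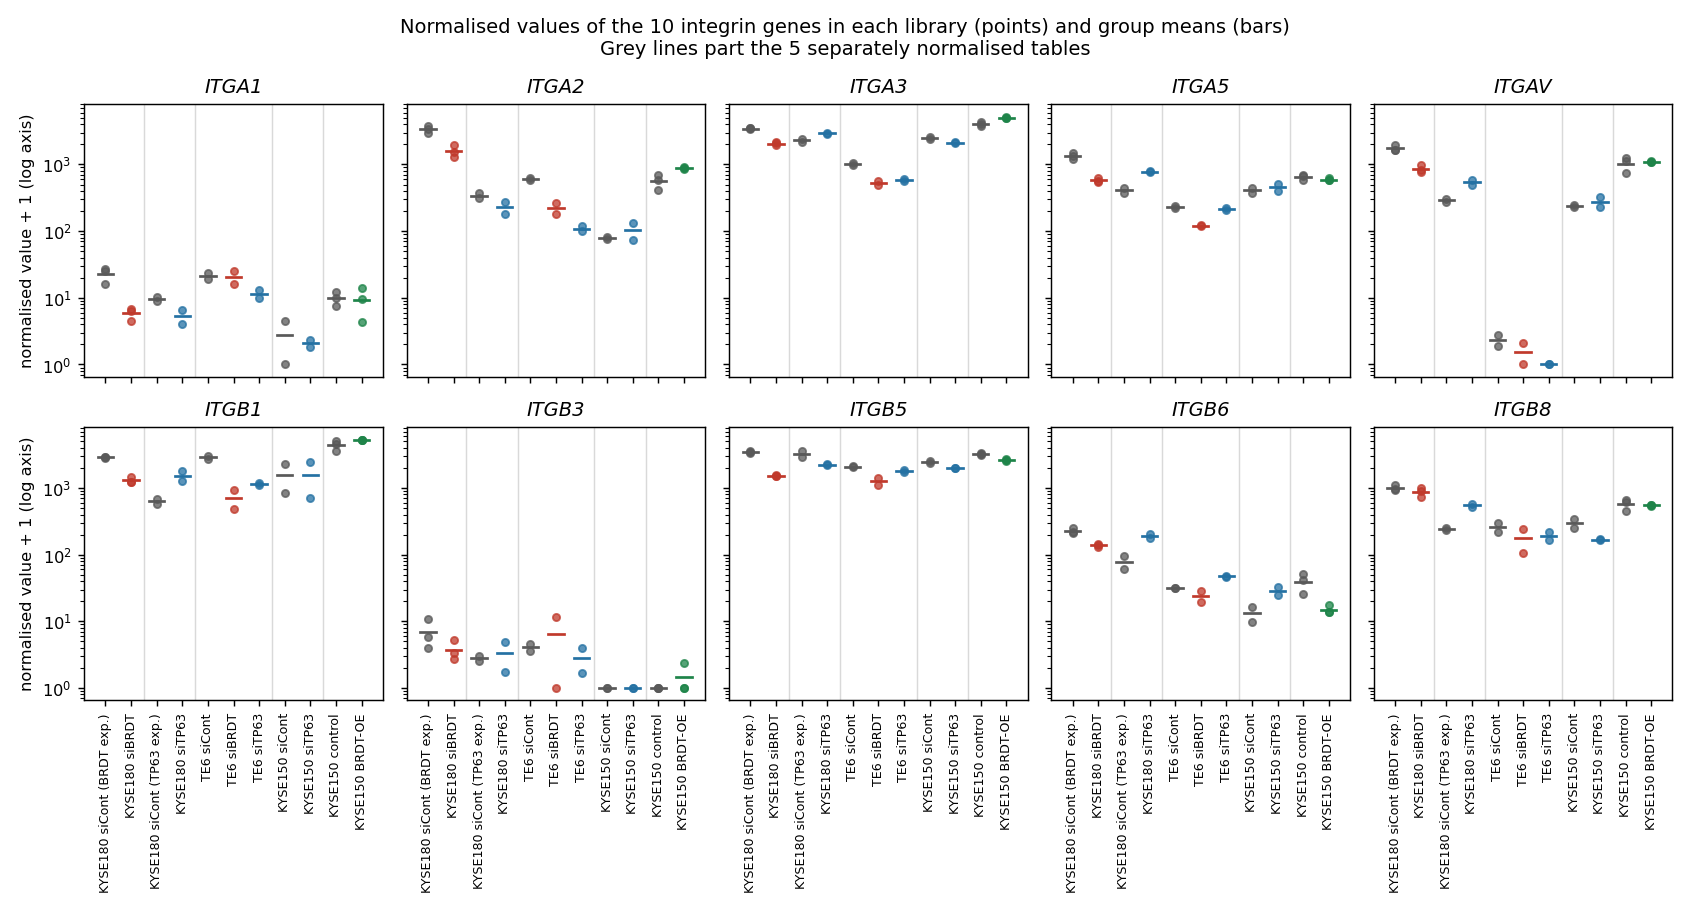
Normalised value + 1 (log axis) of each integrin gene in all 26 libraries (points) with group means (bars); controls are grey, siBRDT red, siTP63 blue and BRDT-OE green, and grey lines part the 5 separately normalised tables. In KYSE180 the siBRDT points of 8 genes lie below all siCont points, and the KYSE150 siCont and siTP63 points of *ITGB1* are widely split within each group.

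The same line did not start from the same levels in its 2 experiments. The KYSE180 siCont libraries had *ITGA2* at 308 ± 39.1 RPM (SD, n = 3) in the BRDT experiment and at 19.9 ± 1.78 RPM (n = 2) in the TP63 experiment, a ratio of 15.5. For *ITGAV* the ratio was 9.24, for *ITGB1* 7.03, for *ITGB8* 6.27, for *ITGA5* 4.99, for *ITGA3* 2.30 and for *ITGB5* 1.62. The GC content of the longest transcript was 61.3% and 54.6% for *ITGA3* and *ITGB5*, with the lowest ratios, and 40.1% and 33.5% for *ITGA2* and *ITGAV*, with the highest. Between these lay *ITGA5* (54.5% GC, ratio 4.99), *ITGB6* (40.2% GC, ratio 4.44) and *ITGA1* (38.7% GC, ratio 3.93). In KYSE150 the vector controls were above the siCont libraries by 7.66 times for *ITGA2*, 4.67 times for *ITGAV*, 1.72 times for *ITGA3* and 1.42 times for *ITGB5*. There *ITGA5* had a ratio of 1.72, *ITGB6* of 3.30 and *ITGA1* of 5.05. These levels come from separate experiments and were not tested against each other. The part of GC content, library preparation, transfection or culture in the gap was not tested.

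Upon siBRDT in KYSE180, the integrin genes fell almost throughout. Of 9 genes tested, 8 were called, all lower, where 30.3% of all 13589 genes tested were called and 15.8% were called lower. Calls required a limma adjusted p under 0.05 together with a log2 fold change no smaller than 0.5 in either direction, on the log2(value + 1) scale, which understates changes of low genes. The median log2 fold change of the 9 genes was -1.11, beside -0.01 over all genes. The siBRDT and siCont libraries did not overlap for any of the 8. The share of all genes without overlap was not taken, here or in the other comparisons.

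Among the collagen receptors, *ITGA2* was at 3004, 3425 and 3825 in siCont and at 1289, 1562 and 1931 upon siBRDT, a log2 fold change of -1.11 ± 0.12 (SE, limma adjusted p = 1.4e-06). *ITGA1* went from 24.5, 15.1 and 26.5 to 5.32, 5.79 and 3.48, a log2 fold change of -1.96 ± 0.35 (adjusted p = 2.2e-04), on 20 to 27 reads per siCont library. Both collagen-binding subunits were therefore lower in each siBRDT library than in any siCont library. The laminin-binding subunit *ITGA3* fell from 3422, 3462 and 3466 to 1938, 2146 and 2072, a log2 fold change of -0.75 ± 0.06. The fibronectin-binding *ITGA5* fell from 1224, 1319 and 1458 to 544, 573 and 626, a log2 fold change of -1.20 ± 0.08. *ITGB1*, the beta subunit common to these receptors, was at 2943, 2958 and 2797 in siCont and at 1212, 1241 and 1445 upon siBRDT, a log2 fold change of -1.16 ± 0.07 (limma adjusted p = 6.5e-09). Its fall was close in size to those of *ITGA2* and *ITGA5*.

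Transcripts of the *ITGAV* receptors fell as well, with 1 exception among the beta chains tested. *ITGAV* itself went from 1634, 1630.0 and 1947 to 780.2, 824 and 972, a log2 fold change of -1.02 ± 0.09. *ITGB5* went from 3368, 3539 and 3497 to 1536, 1569 and 1504, a log2 fold change of -1.17 ± 0.06 (limma adjusted p = 6.6e-10). *ITGB6* went from 213, 214 and 254 to 128, 139 and 144, a log2 fold change of -0.72 ± 0.11. *ITGB8*, a beta chain known for activating latent TGF-beta, was at 957, 917 and 1121 in siCont and at 737, 899.6 and 1010 upon siBRDT; the groups overlapped, and its log2 fold change of -0.19 (95% interval -0.41 to 0.04, adjusted p = 0.14) was not called.

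In TE6, siBRDT lowered the transcripts of *ITGB1* and of some of its alpha partners too. Of 8 genes tested, 5 were called, all lower (*ITGA2*, *ITGA3*, *ITGA5*, *ITGB1* and *ITGB5*), against 33.7% of all genes called and 18.1% called lower, and the median of the 8 was -0.82 beside -0.04 over all genes. *ITGB1* was at 2682 and 3053 in siCont and at 476 and 931 upon siBRDT, a log2 fold change of -2.10 ± 0.22 (SE, limma adjusted p = 1.8e-05). *ITGA2* went from 591 and 618 to 263 and 177 (-1.48 ± 0.18), and *ITGA3* from 1052 and 969 to 494 and 565 (-0.93 ± 0.12). *ITGA5* went from 235 and 218 to 123 and 117 (-0.91 ± 0.15), and *ITGB5* from 2112 and 2053 to 1123 and 1404 (-0.73 ± 0.12). These 5 genes did not overlap between the groups. *ITGA1* was at 18.5 and 22.4 against 15.1 and 23.9, with a log2 fold change of -0.09 (95% interval -0.95 to 0.77). *ITGB6* was at 30.8 and 30.1 against 18.3 and 27.5, without overlap but also without a call (-0.42, adjusted p = 0.26). *ITGB8* had a log2 fold change of -0.65 (95% interval -1.30 to 0.01, adjusted p = 0.098).

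The result in TE6 depended in part on the library with many detected genes. Without siBRDT replicate 1, *ITGB1* still fell, by 1.62 on the log2 scale, and 6 genes were called, since *ITGB8*, at 245 in that library and 105 in the other against 215 and 295 in siCont, then fell by 1.25 (limma adjusted p = 8.1e-09). Without siBRDT replicate 2, *ITGB8* had a log2 fold change of -0.04 and *ITGB1* of -2.59.

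**Figure D3:**
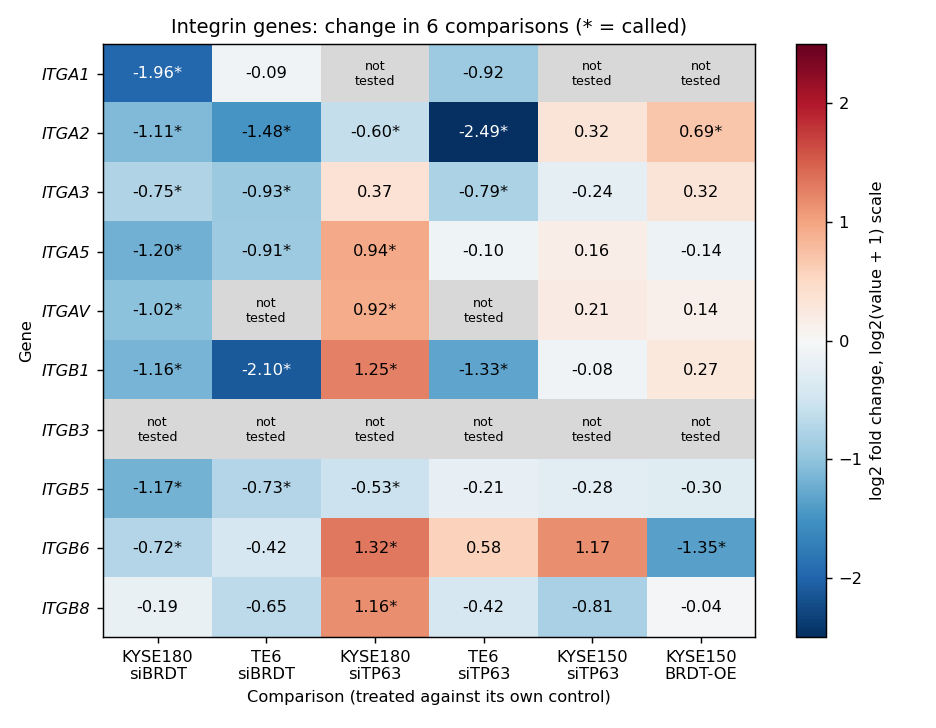
Heat map of the log2 fold change (log2(value + 1) scale) of the 10 integrin genes in the 6 comparisons of treated with control libraries; an asterisk marks a call and grey cells were not tested. The siBRDT columns hold calls in 1 direction (8 in KYSE180, 5 in TE6), whereas the siTP63 columns differ between KYSE180 (5 higher, 2 lower), TE6 (3 lower) and KYSE150 (no call).

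The siBRDT effects of the 2 lines were set against each other as contrasts of fold changes, in which 41.9% of all genes differed. *ITGB1* fell further in TE6, by 0.94 more on the log2 scale (SE 0.24, limma adjusted p = 4.4e-03), a difference of -0.46 without the first TE6 siBRDT library and -1.42 without the second. *ITGB5* fell less in TE6 (difference 0.44 ± 0.13, adjusted p = 8.9e-03), and the fall of *ITGA1* in KYSE180 was not matched in TE6 (difference 1.87 ± 0.53, adjusted p = 8.9e-03). For *ITGA2*, *ITGA3*, *ITGA5*, *ITGB6* and *ITGB8* the difference was not called. The 95% intervals were -0.84 to 0.10 for *ITGA2*, -0.43 to 0.07 for *ITGA3* and -0.02 to 0.60 for *ITGA5*, -0.24 to 0.84 for *ITGB6* and -1.16 to 0.23 for *ITGB8*, which bound how unlike the 2 lines could be. Without the first TE6 siBRDT library, *ITGA2* (-0.66) and *ITGB8* (-1.07) were also called lower in TE6, and with the length and GC trend removed *ITGA5* was called higher (0.35, adjusted p = 0.041).

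Upon siTP63 in KYSE180, most integrin genes moved the other way. Of 8 genes tested, 7 were called, 5 higher and 2 lower, where 49.3% of all 13924 genes were called, 23.6% higher and 25.7% lower. The median of the 8 was 0.93, beside 0.00 over all genes. *ITGB1* was at 684 and 576 in siCont and at 1262 and 1769 upon siTP63, a log2 fold change of 1.25 ± 0.16 (SE, limma adjusted p = 2.8e-07). The fibronectin-binding *ITGA5* rose from 366 and 448 to 785 and 771 (0.94 ± 0.15), and *ITGAV* from 305 and 269 to 498 and 591 (0.92 ± 0.16). The 2 minor *ITGAV* partners rose most nearly with *ITGB1*: *ITGB6* went from 59.8 and 95.5 to 206 and 176 (1.32 ± 0.22) and *ITGB8* from 250.1 and 236 to 516 and 577 (1.16 ± 0.15). All 8 genes were without overlap between the groups, but no share over all genes is at hand to read this count against. With 2 libraries per group such separation can be slight. With siTP63 in TE6, all 8 tested genes were likewise without overlap, though only 3 were called. There the nearest *ITGB8* libraries were at 214.6 and 215.4.

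The 2 falls were smaller. *ITGA2* went from 366 and 309 to 178 and 275 (log2 fold change -0.60 ± 0.18, limma adjusted p = 7.1e-03) and *ITGB5* from 3608 and 2929 to 2284 and 2204 (-0.53 ± 0.15, adjusted p = 2.8e-03). Both lost their call after rescaling to equal upper quartiles (-0.41 and -0.34) and without siCont replicate 1 (-0.48 and -0.38), *ITGA2* also without siTP63 replicate 1 (-0.29) and with no filter on low values (adjusted p = 0.068), and *ITGB5* with edgeR (-0.49). *ITGA3*, at 2411 and 2163 against 2989 and 2906, stayed under the fold limit (0.37, adjusted p = 0.027) and was called at 0.56 after the rescaling. That rescaling shifted the overall median by 0.19 and the share of calls that were higher from 47.9% to 63.2%. With length and GC trends taken out of each library, the rise of *ITGAV* was 0.54 and those of *ITGB1*, *ITGB6* and *ITGB8* were 0.97, 1.09 and 0.80, all still called. In the same comparison the summed fibroblast markers went from between 36.1 and 39.7 RPM to between 68.7 and 80.0 RPM. None of the 2 fibroblast markers tested was called. Over all KYSE180 libraries *COL1A1* ran from 32.8 to 94.3 RPM, while *COL1A2*, the next highest, reached 14.7 RPM. The endothelial sum went from between 1.36 and 2.09 RPM to between 11.3 and 12.1 RPM. Of the 3 endothelial markers 1 was tested, and it was called higher. Over all KYSE180 libraries *VWF* reached 11.8 RPM, *PECAM1* 0.421 RPM and *CDH5* 0.318 RPM. The part of these markers in the integrin values was not tested.

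Upon siTP63 in TE6, 3 of 8 genes were called, all lower (*ITGA2*, *ITGA3* and *ITGB1*), against 38.9% of all genes called and 20.6% called lower, with a median of -0.60 beside -0.01 over all genes. *ITGA2* went from 591 and 618 in siCont to 98.2 and 117, a log2 fold change of -2.49 ± 0.18 (SE, limma adjusted p = 5.6e-07). *ITGB1* went from 2682 and 3053 to 1101 and 1182 (-1.33 ± 0.22) and *ITGA3* from 1052 and 969 to 567 and 601 (-0.79 ± 0.12). The fibronectin-binding *ITGA5*, at 235 and 218 against 205 and 218, had a log2 fold change of -0.10 (95% interval -0.42 to 0.22). *ITGB6* was higher in both siTP63 libraries, at 46.4 and 45.9 against 30.8 and 30.1, without a call (0.58, adjusted p = 0.12). With the length and GC trend removed it was called higher (0.83, adjusted p = 0.035), which made 1 higher and 3 lower. *ITGB5* was at 1715 and 1884 against 2112 and 2053 (-0.21, 95% interval -0.46 to 0.04) and *ITGB8* at 166 and 215 against 215 and 295 (-0.42, 95% interval -1.07 to 0.24), neither of them called. *ITGA1*, on 6 and 18 reads upon siTP63, had a log2 fold change of -0.92 (adjusted p = 0.071) and was called when only these 2 groups were fitted (adjusted p = 0.042) or either siBRDT library was left out of the shared fit (0.034 and 0.045).

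The siTP63 effect differed between KYSE180 and TE6 for 5 of the 7 genes tested in both, all lower in TE6, where 55% of all genes differed, 28.8% higher and 26.2% lower in TE6. The difference in log2 fold change, TE6 minus KYSE180, was -2.58 ± 0.30 for *ITGB1* (limma adjusted p = 1.9e-06), -1.88 ± 0.29 for *ITGA2*, -1.58 ± 0.37 for *ITGB8*, -1.16 ± 0.17 for *ITGA3* and -1.04 ± 0.21 for *ITGA5*. With the length and GC trend removed, *ITGA2* differed by -1.16 and *ITGB8* by -0.77, the latter without a call (adjusted p = 0.057), while *ITGB5* was called higher in TE6 (0.34, adjusted p = 0.045), so that the calls were 1 higher and 4 lower. In the fit without that step, the differences of *ITGB5* (0.32, 95% interval -0.06 to 0.71) and *ITGB6* (-0.73, 95% interval -1.54 to 0.07) were not called. *ITGB1* thus rose upon siTP63 in one line and fell in the other. *TP63* itself was lowered further in TE6, at -4.45 against -1.70 in KYSE180 (difference -2.74 ± 0.19, limma adjusted p = 4.0e-08). The part of this unequal knockdown in the integrin differences was not tested.

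In KYSE150, limma called none of the 8 integrin genes tested upon siTP63, as it called 0% of all 12335 genes. At an unadjusted p under 0.05 there were 2 of the 8 genes and 2194 of all genes. edgeR called 0 genes and DESeq2 462, none of them an integrin gene of this set. *ITGB6* was at 8.91 and 15.3 in siCont and at 31.6 and 24.0 upon siTP63, a log2 fold change of 1.17 (95% interval 0.05 to 2.28, limma adjusted p = 0.26). *ITGB8* was at 346 and 246 against 169 and 164 (-0.81, 95% interval -1.44 to -0.18, adjusted p = 0.20). Neither gene overlapped between the groups. In these libraries the deviations from the group means ran together between replicates of unlike number (r = 0.70). With that crossed pairing as a block, *ITGB6* (limma adjusted p = 0.022) and *ITGB8* (limma adjusted p = 7.1e-05) passed the limits at the same fold changes, among 3400 genes. The pairing was chosen after seeing the data, from the same deviations that the block removes, so these p-values do not hold as a test. *ITGA3*, at 2619 and 2402 against 2085 and 2155 (-0.24), and *ITGB5*, at 2511 and 2364 against 2000.2 and 2000.3 (-0.28), were lower in both siTP63 libraries without a call. *ITGA2*, *ITGA5* and *ITGAV* overlapped between the groups, with log2 fold changes of 0.32, 0.16 and 0.21. *ITGB1* shows how wide the spread was, at 837 and 2289 in siCont and at 2421 and 709 upon siTP63, which leaves a 95% interval from -1.80 to 1.65 around -0.08. *TP63* itself, at -2.34, reached an adjusted p of 0.082. Against the KYSE180 effect, *ITGB8* was lower in KYSE150 by 1.97 ± 0.28 (limma adjusted p = 0.028, where 1.62% of all genes differed and 0.849% were lower), a call lost without any 1 of the 4 KYSE180 libraries (adjusted p 0.11 to 0.22). The other 7 genes, from -1.33 for *ITGB1* to 0.92 for *ITGA2*, were not called, although *ITGA2* was with the length and GC trend removed (1.31, adjusted p = 0.043) and *ITGA3* with DESeq2 (-0.68, adjusted p = 0.031). Against the TE6 effect, *ITGA2* was higher in KYSE150 by 2.80 ± 0.40 (adjusted p = 6.5e-03, where 3.86% differed, 2.2% higher and 1.66% lower). The other 6 genes, from -0.39 for *ITGB8* to 1.25 for *ITGB1*, were not called, although *ITGA3* was with the trend removed (0.63, adjusted p = 0.020). *TP63* itself was lowered less in KYSE150 than in TE6 (difference 2.10 ± 0.28, limma adjusted p = 3.8e-03). The part of this in the *ITGA2* difference was not tested.

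The 2 knockdowns were then compared within each line. In KYSE180 the siTP63 effect lay above the siBRDT effect for 7 of 8 integrin genes, where 65.1% of all genes differed and 31.3% were higher. The difference was 2.41 ± 0.17 for *ITGB1* (limma adjusted p = 4.4e-09), 2.14 ± 0.15 for *ITGA5*, 2.04 ± 0.24 for *ITGB6*, 1.93 ± 0.16 for *ITGAV*, 1.35 ± 0.17 for *ITGB8*, 1.12 ± 0.12 for *ITGA3* and 0.64 ± 0.13 for *ITGB5*. For *ITGA2* it was 0.51 (95% interval 0.01 to 1.01, adjusted p = 0.068), and it was called with edgeR, after rescaling to equal upper quartiles and with the replicate block (adjusted p 0.015 to 0.042). The 2 effects come from separate KYSE180 experiments with the different starting levels given above, so the agent and the experiment cannot be told apart.

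In TE6 the treated groups share 1 table and were compared directly. Here siTP63 was above siBRDT for *ITGB6* (1.01 ± 0.29), *ITGA5* (0.81 ± 0.15), *ITGB1* (0.78 ± 0.22) and *ITGB5* (0.52 ± 0.12), and below it for *ITGA2* (-1.003 ± 0.18, limma adjusted p = 1.0e-03), where 39.2% of all genes differed. The difference for *ITGB1* was 0.29 without siBRDT replicate 1 and 1.26 without replicate 2, and its call was lost without either siTP63 library (adjusted p = 0.073 and 0.12). *ITGB6* lost its call without siBRDT replicate 1 or either siTP63 library (adjusted p 0.069 to 0.091) and with no filter on low values (0.0501), and *ITGB5* without siTP63 replicate 2 (adjusted p = 0.076). *ITGA3* did not differ by a call (0.14, 95% interval -0.11 to 0.40). *ITGA1* (-0.82, adjusted p = 0.12) and *ITGB8* (0.23, adjusted p = 0.58) were not called. With DESeq2, *ITGB1* (adjusted p = 0.15) and *ITGB6* (0.10) were not called.

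**Figure D4:**
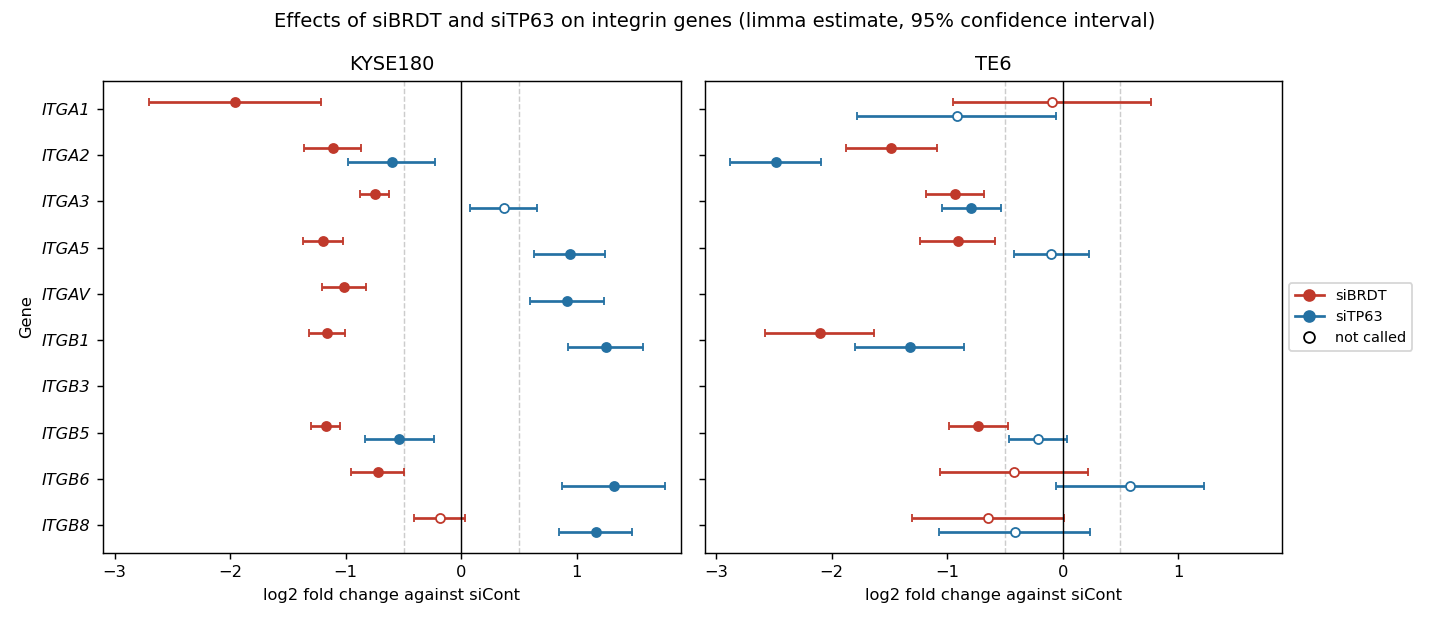
Log2 fold change against siCont (points) with 95% confidence intervals from limma for siBRDT (red) and siTP63 (blue) in KYSE180 and TE6; filled points were called and dashed lines mark the fold limit of 0.5. In KYSE180 the points of *ITGB1* lie at -1.16 and 1.25, and in TE6 at -2.10 and -1.33.

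Upon overexpression of BRDT in KYSE150, *ITGA2* was called higher and *ITGB6* lower. These are 2 of 8 genes tested, a share close to the 26.5% of all 12765 genes called (10.5% higher and 16% lower). The median was 0.05, beside 0.02 over all genes. *ITGA2* was at 581, 684 and 415 in control libraries and at 883, 912 and 859 in BRDT-OE, a log2 fold change of 0.69 ± 0.15 (SE, limma adjusted p = 3.3e-03). *ITGB6* was at 49.7, 24.5 and 40.6 in control libraries and at 16.3, 12.7 and 12.7 in BRDT-OE, a log2 fold change of -1.35 ± 0.29 (adjusted p = 3.3e-03), on 9 to 19 reads per BRDT-OE library. Neither gene overlapped between the groups. Without control replicate 3, the lowest in *ITGA2*, the log2 fold change of *ITGA2* was 0.49, just under the fold limit.

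Smaller shifts stayed under that limit. *ITGA3*, at 4025, 4366 and 3727 against 4891, 5103 and 5055, had a log2 fold change of 0.32 (limma adjusted p = 5.1e-03). *ITGB5*, at 3372, 3211 and 3175 against 2577, 2645 and 2677, had one of -0.30 (adjusted p = 2.7e-03). *ITGB1* had 0.27 (95% interval 0.02 to 0.52, adjusted p = 0.064), while *ITGA5*, *ITGAV* and *ITGB8* lay between -0.14 and 0.14. Rescaling to equal upper quartiles shifted the overall median by -0.10 and the share of calls that were higher from 39.7% to 26.01%, with *ITGA2* at 0.59 and *ITGB6* at -1.44, both still called.

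Over the 6 comparisons, *ITGA2* was called in 5 and *ITGB1* in 4, *ITGA3*, *ITGA5*, *ITGB5* and *ITGB6* in 3 each, *ITGAV* in 2, *ITGA1* and *ITGB8* in 1 each and *ITGB3* in none.

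The mix of *ITGAV* partners other than *ITGB1* differed between siCont and knockdown in KYSE180. *ITGB1* was left out because it pairs with many other alpha subunits. As a share of the per-length reads of *ITGB3*, *ITGB5*, *ITGB6* and *ITGB8*, *ITGB5* made up 83.4% ± 1.47 (SD, n = 3) in siCont and 74.2% ± 2.604 upon siBRDT, while *ITGB8* made up 10.3% ± 0.921 and 18.3% ± 2.41. In the TP63 experiment *ITGB5* made up 94.3% ± 1.46 (n = 2) in siCont and 83.2% ± 0.251 upon siTP63, with *ITGB6* at 2.602% ± 1.16 and 7.95% ± 0.708 and *ITGB8* at 3.04% ± 0.277 and 8.72% ± 0.878. The libraries of the groups did not overlap in the *ITGB5* share in either experiment. In the TE6 and KYSE150 groups *ITGB5* made up between 91.2% and 95.1% on average. In TE6, where *ITGAV* itself had 0 to 2 reads per library, the shares describe the beta genes alone. The KYSE180 siCont groups of the BRDT and TP63 experiments also differed, with *ITGB5* at 83.4% and 94.3%, and the siTP63 share of 83.2% lay near the former. These shares were not tested, and no GC trend was removed from them.

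**Figure D5:**
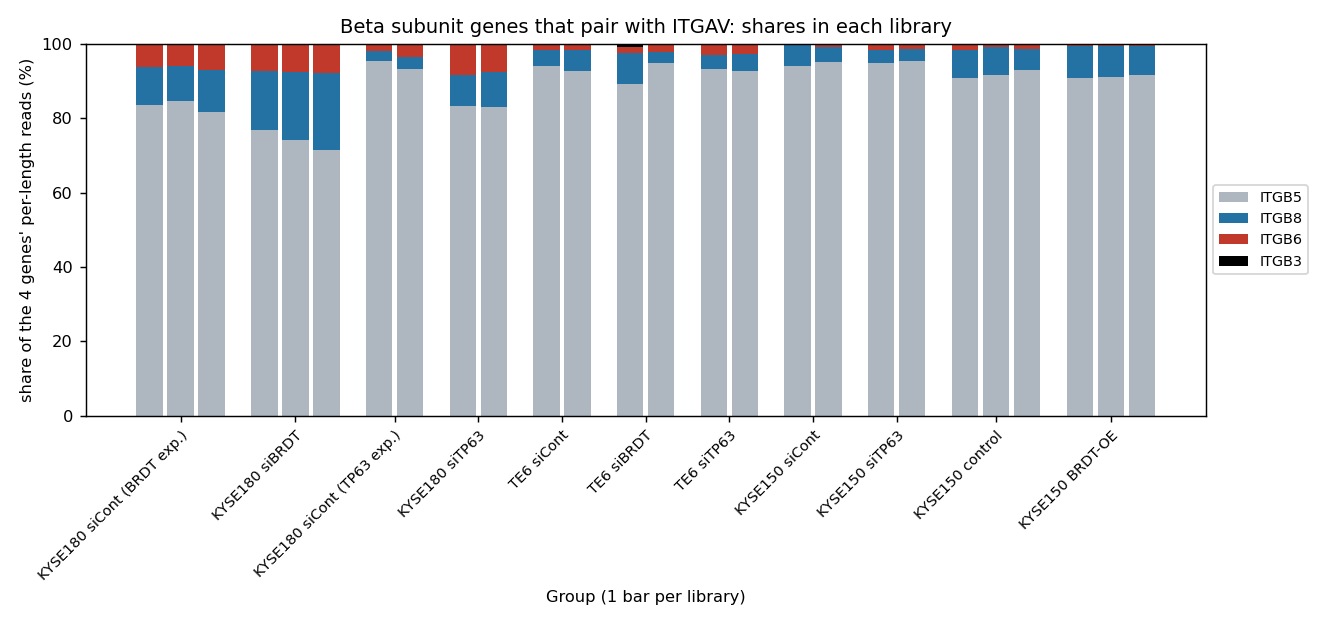
Share (%) of the per-length reads of 4 beta subunit genes that pair with *ITGAV* (*ITGB1* left out), 1 stacked bar per library and grouped by condition. *ITGB5* fills most of each bar, from 74.2% on average in KYSE180 siBRDT to 95.1% in KYSE150 siTP63. The *ITGB8* part is largest in KYSE180 siBRDT (18.3%). The TE6 libraries held 0 to 2 reads of *ITGAV* itself.

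Ligands and adhesion genes from 6 lists chosen by function were read from the same fits. Of 23 matrix ligands, 22 were tested in KYSE180 siBRDT and 13 were called, all lower, with a median of -0.83, and 11 of 18 were lower in TE6 siBRDT, with a median of -0.65. Over all genes 15.8% and 18.1% were called lower in these comparisons. The largest falls were those of *TNC* in KYSE180, the matrix protein tenascin-C, at -2.32, and of the basement membrane collagen *COL4A1* in TE6, at -1.80. Upon siTP63, 9 ligands were higher and 1 lower of 20 in KYSE180 (over all genes 23.6% higher and 25.7% lower), led by *CTGF* at 2.004, and 3 were higher and 7 lower of 18 in TE6 (over all genes 18.3% and 20.6%), with *CYR61* at 2.13 and *COL4A1* at -1.69. Both *CTGF* and *CYR61* encode secreted matricellular proteins that bind integrins. BRDT-OE had 6 ligands higher and 2 lower of 20 (over all genes 10.5% and 16%), with *THBS1* (thrombospondin-1) at 1.33 and *COL1A1*, also a fibroblast marker, at -0.90.

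Among adaptors and kinases of the adhesion complex, 12 of 30 were lower and 1 higher in KYSE180 siBRDT (over all genes 15.8% and 14.5%). In TE6 siBRDT 15 of 28 were lower and 3 higher (over all genes 18.1% and 15.6%). *TGFB1I1* was at -1.81 in KYSE180 and *VCL* (vinculin) at -1.21 in TE6, with *BCAR1* rising by 0.72 and 0.63 in the 2 lines. Upon siTP63, 9 of 30 were higher and 3 lower in KYSE180 (over all genes 23.6% and 25.7%), with *VCL* at 1.47 and *PARVB* at -1.91. In TE6 3 of 28 were higher and 8 lower (over all genes 18.3% and 20.6%), with *TNS3* at 0.95 and *TNS4* at -2.31. BRDT-OE had 9 of 27 higher and 1 lower (over all genes 10.5% and 16%), led by *FLNA* (filamin A) at 0.96. Medians were -0.23, -0.52, 0.18, -0.24 and 0.38 in this order of comparisons.

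Among 16 other integrin subunits, 6 or 7 were tested per comparison. In KYSE180 siBRDT 1 of 7 was higher and 2 lower, in TE6 siBRDT 1 and 3, in KYSE180 siTP63 3 and 2, in TE6 siTP63 1 and 3 and in BRDT-OE 1 and 2, which may be read against the shares of all genes called (30.3%, 33.7%, 49.3%, 38.9% and 26.5%). *ITGA6*, the alpha subunit of hemidesmosomes, fell in both siBRDT comparisons (-0.91 in KYSE180 and -0.96 in TE6) and in TE6 siTP63 (-1.28), and rose in BRDT-OE (0.82). *ITGAE* rose in KYSE180 and TE6 siBRDT (0.58 and 1.00) and in TE6 siTP63 (0.76) and fell in KYSE180 siTP63 (-1.10). Of the latent TGF-beta genes bound by *ITGAV* integrins, 1 or 2 of the 3 or 4 tested were called in each of these comparisons, beside the same shares. *LTBP1* fell by 1.72 and 0.67 upon siBRDT in KYSE180 and TE6, and *TGFB1* fell by 0.95 and 1.26 upon siTP63. *TGFB3* rose in KYSE180 siTP63 (1.01) and *LTBP3* in TE6 siTP63 (0.66), and *LTBP3* fell in BRDT-OE (-0.87).

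In the same order of comparisons, calls among the 9 or 10 tested integrin trafficking genes numbered 1, 2, 4, 4 and 2. Over all genes 30.3%, 33.7%, 49.3%, 38.9% and 26.5% were called, so this list stayed near or below those shares. *NUMB* was at -0.80 in TE6 siBRDT and 0.88 in KYSE180 siTP63. *RAB21*, a small GTPase, rose in KYSE180 siBRDT (0.56) and BRDT-OE (0.52) and fell in TE6 siTP63 (-0.63). *SNX17*, a sorting nexin, fell in KYSE180 siTP63 (-0.64), and the GTPase gene *RAB25* rose in TE6 siTP63 (0.61). Among 10 lateral membrane partners, 4 were lower in KYSE180 siBRDT, where 15.8% of all genes were. In KYSE180 siTP63 5 were lower and 1 higher (median -0.50), beside 25.7% and 23.6% of all genes. TE6 siBRDT, TE6 siTP63 and BRDT-OE each had 1 higher and 1 lower. *CD9*, a tetraspanin, fell in KYSE180 siBRDT (-0.85), was the 1 gene that rose in KYSE180 siTP63 (0.64) and fell in BRDT-OE (-0.67), and the tetraspanin *CD63* had the largest fall in KYSE180 siTP63 (-0.74). *PLAUR*, the urokinase receptor, rose in TE6 siBRDT (0.92) and *CD47* in TE6 siTP63 (0.56). *CAV1* fell in TE6 upon siBRDT (-0.63) and siTP63 (-1.59) and rose in BRDT-OE (0.55).

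Several of these calls were lost under an alternative. With the length and GC trend removed these were *CD63* in KYSE180 siTP63 (-0.24), *SNX17* in KYSE180 siTP63 (-0.44), *PLAUR* in TE6 siBRDT (0.47), *LTBP3*, *RAB25* and *RAB21* in TE6 siTP63 (0.44, 0.25 and -0.18) and *RAB21* in BRDT-OE (0.36). After rescaling to equal upper quartiles they were *SNX17* in KYSE180 siTP63 (-0.45) and *RAB21* and *CAV1* in BRDT-OE (0.42 and 0.46), and with edgeR *RAB21* in BRDT-OE (0.50). With 1 library left out, *ITGAE* in KYSE180 siBRDT (0.50 without siCont replicate 3), *LTBP1* in TE6 siBRDT (-0.50 without siBRDT replicate 1, and adjusted p = 0.077 without siCont replicate 2), *CAV1* in TE6 siBRDT (-0.50 without siBRDT replicate 2), *CD9* in KYSE180 siTP63 (0.48 without siCont replicate 1), *CD47* in TE6 siTP63 (0.43 without siCont replicate 1 and 0.50 without siTP63 replicate 2) and *RAB21* in BRDT-OE (0.45 without control replicate 1) lost their calls. In KYSE150 siTP63 limma called 0 genes of all 6 lists, against 3 other integrin subunits, 4 adaptors, 4 ligands and 1 lateral membrane partner at an unadjusted p under 0.05.

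Over all 26 libraries, each centred on the mean of its own table's controls, the integrin genes moved together to different degrees. The highest Pearson r between 2 of the 10 was 0.87, for *ITGA3* and *ITGB1*, and the lowest -0.19, for *ITGA2* and *ITGB6*. Among 8303 genes with a mean of at least 100 in all 5 tables, the most similar to *ITGA2* were *DSC3* (r = 0.963) and *AIM1* (0.956), to *ITGA3* *MAN1A2* (0.949) and *ACTN1* (0.947), to *ITGA5* *GPR107* (0.972) and *MFSD6* (0.970), to *ITGB1* *AP3B1* (0.979) and *SCRN1* (0.971), to *ITGB5* *TTC7A* (0.960) and *FXR1* (0.935), and to *ITGB6* *TAP1* (0.952) and *ZKSCAN4* (0.941). These are descriptions over libraries that share tables, scaling and controls, and carry no test.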

How the data were processed

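RNA was sequenced in 26 libraries of KYSE180, TE6 and KYSE150 cells, grouped by the labels. The study's methods give STAR for alignment to hg38, HTSeq for counting per gene and DESeq2 for the analysis; the submitters' processing notes name STAR 2.6.0, HTSeq 0.11.2 and DESeq2 1.24.0. Strand setting and annotation are not given in the sources used here. The deposited values are a signal: each library's gene counts over its size factor, with 5 tables scaled independently. Whole reads were recovered for 100% of values (tolerance 0.01 reads), and totals ranged from 7582089 to 19372441 reads.

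Genes with a mean value of at least 10 were tested with limma 3.58.1 (R 4.3.3; lmFit, then eBayes with trend) on log2(value + 1), separately in each table and with the 3 TE6 groups in 1 fit, with Benjamini-Hochberg adjustment over all genes tested. In the 6 comparisons with controls, the call limits were 0.05 for the adjusted p-value and 0.5 for the size of the log2 fold change; the 6 contrasts had no fold limit. No replicate block was used. Levels per length used the union of GENCODE release 44 exons; with the longest transcript the order of the highest genes changed. Scripts were tested on simulated data. Alternatives were a pseudocount of 0.1, no filter, rescaling to equal upper quartiles, edgeR 4.0.16 and DESeq2 1.42.0 on recovered reads, a replicate block, removal of length and GC trends (splines with 4 degrees of freedom; 91.9% to 92.6% of tested genes had both), no fold limit, 2 TE6 groups alone, the longest transcript as length, each library left out and, added after seeing the data, a crossed pairing. On the recovered reads edgeR called 4134 genes for siBRDT and 6985 for siTP63 in KYSE180, 4504 and 5303 in TE6, 0 for siTP63 in KYSE150 and 3415 for BRDT-OE.

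The integrin genes tested are all given in each comparison with controls, and contrasts give the called ones with the range of the others. Each list contributes its largest called rise and fall per comparison at a mean of at least 100, and each integrin gene called in at least 3 comparisons its 2 most similar genes. The members and lists were chosen with earlier results of these data known. Plots used Python 3.11.15 and matplotlib 3.10.9.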

Additional observations from a re-analysis of the deposited data

Results flagged for a closer look

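The following effects differed between cell lines by a test of the difference itself, a limma contrast of 2 fold changes. For siTP63, TE6 minus KYSE180, the differences in log2 fold change were -2.58 for *ITGB1*, -1.88 for *ITGA2*, -1.58 for *ITGB8*, -1.16 for *ITGA3* and -1.04 for *ITGA5*. For siTP63, KYSE150 minus KYSE180, it was -1.97 for *ITGB8*, and for KYSE150 minus TE6 it was 2.80 for *ITGA2*. For siBRDT, TE6 minus KYSE180, it was 1.87 for *ITGA1*, -0.94 for *ITGB1* and 0.44 for *ITGB5*. No cause was tested. The difference for *TP63* itself upon siTP63 was -2.74 for TE6 minus KYSE180 and 2.10 for KYSE150 minus TE6. Each line was handled in an experiment of its own, so line, experiment and depth of the *TP63* knockdown cannot be told apart.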

How the results depend on the processing

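Of 183 recomputed counts, orders and shares that answer a comparison, 166 stayed within the limits set for them; of 2085 values of single genes, 1989 kept their direction and side of the threshold. The count of integrin genes called was 8 under every alternative for siBRDT in KYSE180, 5 or 6 in TE6, 5 to 8 for siTP63 in KYSE180 and 3 or 4 in TE6. It was 2 and not 0 for siTP63 in KYSE150 with crossed pairing, 4 and not 2 for BRDT-OE with no fold limit, 2 and not 1 for KYSE150 minus KYSE180 with DESeq2 or the trend removed, 2 and not 1 for KYSE150 minus TE6 with the trend removed, and 3 and not 5 for siTP63 against siBRDT in TE6 with DESeq2. With 1 library left out, the counts ran from 1 to 2 for BRDT-OE, 0 to 4 for KYSE150 minus KYSE180, 1 to 2 for KYSE150 minus TE6, 3 to 5 for siBRDT in TE6 minus KYSE180 and 2 to 6 for siTP63 against siBRDT in TE6. The cause was not tested. Over all genes, the count of calls moved by over 1.5 times with no fold limit (7937 and not 4115 for siBRDT in KYSE180, 6521 and not 3386 for BRDT-OE) and, for siTP63 in KYSE150, from 0 to 462 with DESeq2, 762 with the trend removed, 137 with the replicate block, 45 with no filter and 242 to 307 with 1 library left out (each of the 4). For KYSE150 minus KYSE180 it was 193 and became 1148 with DESeq2, 950 with the trend removed, 0 with the replicate block and 0 to 2932 with 1 library left out; for KYSE150 minus TE6 it was 449 and became 987, 1180, 61 and 64 to 3012. For siBRDT in TE6 it was 2993 and not 4493 without siCont replicate 2, and for siTP63 against siBRDT in TE6 3119 and 2618 and not 5228 without siTP63 replicates 1 and 2.

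The replicate numbers did not pair the libraries, with correlations of same-numbered deviations from -0.70 to 0.18 over the 6 comparisons, and none over 0.1 in every pair of an experiment. The replicate block gave 0 calls and not 1 for KYSE150 minus KYSE180 (*ITGB8*, adjusted p = 0.28, limma) and 8 and not 7 for siTP63 minus siBRDT in KYSE180, where *ITGA2* was added; the calls of integrin genes in the comparisons with controls did not change in number. With the crossed pairing in KYSE150, which was chosen from these same data, 3400 of all genes passed the limits.

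Directions turned for genes without a call. With the trend removed these were *ITGA1* in TE6 siBRDT (0.35), *ITGAV* in BRDT-OE (-0.00047) and *ITGB6* in KYSE150 minus KYSE180 (0.16). For *ITGB1* in KYSE150 siTP63 they were 5.4e-05 with DESeq2 and 0.022 with edgeR. With 1 library left out, the log2 values spanned 0 for *ITGA1* in TE6 siBRDT (-0.41 to 0.22), for *ITGA2* (-0.11 to 0.75), *ITGA5* (-0.011 to 0.33), *ITGAV* (-0.027 to 0.44) and *ITGB1* (-0.96 to 0.81) in KYSE150 siTP63, for *ITGAV* (-0.089 to 0.28) and *ITGB8* (-0.20 to 0.077) in BRDT-OE, for *ITGB6* in KYSE150 minus KYSE180 (-0.51 to 0.21), and for *ITGB8* in siBRDT, TE6 minus KYSE180 (-1.07 to 0.14), and in siTP63 against siBRDT in TE6 (-0.37 to 0.84). With 2 libraries per group, few reads for *ITGA1*, *ITGB3* and *ITGB6* and the spread of the KYSE150 siTP63 experiment, small changes were not detectable.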
